A study of Danio rerio with 8 samples.

Results

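Respiratory complex I is the large enzyme of the inner mitochondrial membrane that passes electrons from NADH to ubiquinone and pumps protons as it does so. Most of its subunits are encoded in the nucleus, and the mitochondrial genome supplies the *mt-nd* subunits, which form the core of its membrane arm. Mitochondrial mRNAs are cut from long precursors of either DNA strand, and in vertebrates *mt-nd6* is the only protein-coding gene read from the light strand, while the other *mt-nd* genes are read from the heavy strand. Retinal photoreceptors are known for a very high demand for mitochondrial ATP, and macrophages are known to shift between mitochondrial respiration and glycolysis with their state of activation.

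All 7 mitochondrially encoded complex I subunits of the zebrafish were taken by transcript identifier from the 52122 transcripts listed for each library, namely *mt-nd1* (ENSDART00000093596), *mt-nd2* (ENSDART00000093600), *mt-nd3* (ENSDART00000093615), *mt-nd4l* (ENSDART00000093617), *mt-nd4* (ENSDART00000093618), *mt-nd5* (ENSDART00000093622) and *mt-nd6* (ENSDART00000093623). The lengths listed for them, 975, 1047, 351, 297, 1381, 1821 and 519 bases in that order, are each equal to the length of the gene of that name, and of no other protein-coding gene, in the RefSeq annotation of the mitochondrial genome (assembly GRCz12tu). The other 6 protein-coding transcripts of the mitochondrion, *mt-co1*, *mt-co2*, *mt-co3*, *mt-atp6*, *mt-atp8* and *mt-cyb*, were recognised by their identifiers and by the same match of lengths, and they serve as the nearest comparison. Every *mt-nd* transcript was counted in all 8 libraries and passed the filter on low counts. None of their estimated counts had a fraction, so no read of theirs was seen to be divided with another transcript.

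The libraries came from 32 adult *mpeg1*:GFP (gl22) zebrafish of both sexes, aged 10 to 12 months, a line with GFP under the *mpeg1* promoter, which is active in macrophages and microglia. Ouabain, a blocker of the sodium-potassium pump used here to lesion the inner retina, was injected into the eye to reach about 2 µM, and the retinas were collected 7 days later. Only the right eye was injected, and the retinas were dissociated in 4 pools of 8 from separate fish. From every pool, 1 library was made from the sorted GFP+ cells (microglia and macrophages) and 1 from the GFP− cells (everything else in the retina), so each population has 4 libraries. Libraries with the same replicate number were taken to come from the same pool, which the sample titles do not state. All results by pool rest on this. All 8 libraries came from lesioned retinas, so the comparison is between sorted populations and holds no uninjured control. The estimated counts were 17489304 to 23702022 in the GFP+ libraries and 22042955 to 27727554 in GFP− replicates 1, 2 and 4, while GFP− replicate 3 had 7316619. In GFP− replicate 3, 36.7% of the counts belonged to the transcript with the most reads in the series, against 17.1% to 30.1% in the other libraries. For this reason the fits and the overlap of levels are given with and without GFP− replicate 3. The same holds for the tested ratios and the correlations with the mean profile. Other results use all 8 libraries unless stated. Markers of microglia, photoreceptors and Müller glia and the nuclear complex I subunits were not analysed here, since their transcript identifiers are not paired with genes.

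The first question was how much of the mRNA of each population came from the *mt-nd* genes. Levels are given as CPM (counts of a transcript per 1e+06 counts of the library). QuantSeq reads lie near the 3′ end of a polyadenylated RNA, so the CPM is not expected to grow with the length of the transcript. It need not track molecules where a transcript lacks a poly(A) tail or where reading frames share an mRNA. Neither was tested here. Together, the *mt-nd* transcripts made up 0.445%, 0.532%, 0.578% and 0.826% of the counts in GFP+ replicates 1 to 4, and 1.03%, 1.98%, 0.493% and 0.974% in GFP− replicates 1 to 4. GFP− replicates 1, 2 and 4 lay above all GFP+ libraries, and GFP− replicate 3 lay below GFP+ replicates 2, 3 and 4. The means were 0.595% ± 0.164 in GFP+ and 1.12% ± 0.621 in GFP− cells (SD, n = 4 each). The 95% Wilson interval of the share in GFP− replicate 3, the widest relative to its value, ran from 0.488% to 0.498%, so counting error, the only error these intervals cover, was far below the spread between libraries. In bulk RNA, a smaller share can come from fewer cells of a type or from less of the RNA in each cell, and these cannot be told apart.

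By pool, the summed share in GFP− cells was 2.30, 3.72, 0.853 and 1.18 times that in GFP+ cells. The direction in pool 3 depended on the transcript with the most reads. With its counts left out of the library totals, the means were 0.763% ± 0.166 in GFP+ and 1.51% ± 0.726 in GFP− cells (SD, n = 4 each), and the share in GFP− cells was 2.22, 3.46, 1.08 and 1.40 times that in GFP+ cells. In pools 1, 2 and 4, all 7 transcripts had a higher CPM in the GFP− library. Of all transcripts tested, 28.1% were higher in the GFP− library in those pools. Of those with at least 100 CPM in the mean, the set that holds the 7, 33.5% were. In pool 3, 3 of the 7 (*mt-nd1*, *mt-nd4* and *mt-nd5*) were higher in the GFP− and 4 in the GFP+ library. The same library was extreme throughout: GFP− replicate 2 had the highest and GFP− replicate 3 the lowest CPM of the 4 GFP− libraries for all 7 transcripts, and for all 6 of the other mitochondrial transcripts. Among GFP+ libraries, replicate 4 had the highest value for 6 of the 7 and replicate 1 the lowest for 5. The coefficient of variation between libraries was 16.7% to 39.2% in GFP+ and 40.3% to 81.9% in GFP− cells.

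**Figure D1:**
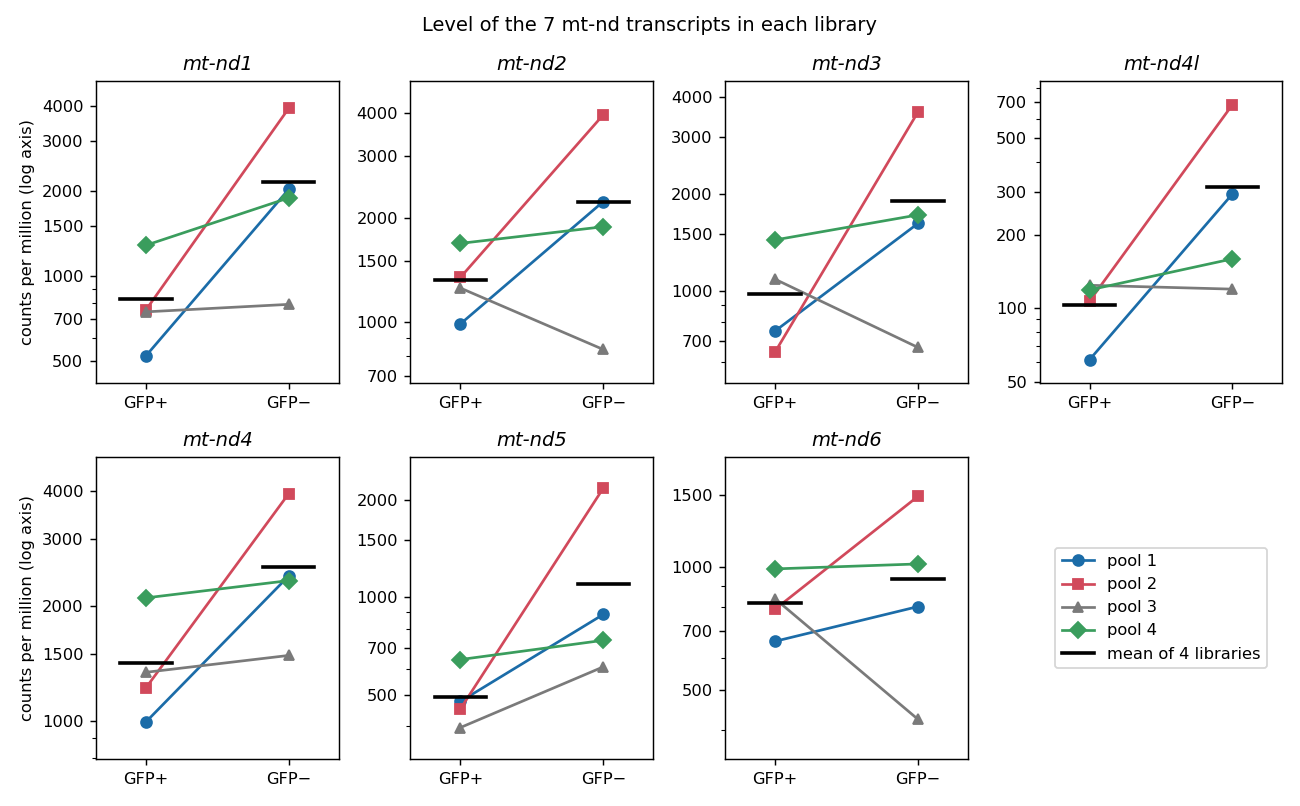
Level of each *mt-nd* transcript in CPM (log axis) in the GFP+ and GFP− library of each pool, with a line joining the 2 libraries of a pool and a black bar at the mean of 4 libraries. Lines climb from GFP+ to GFP− in pools 1, 2 and 4 for all 7 transcripts, while in pool 3 the GFP− library is lower for *mt-nd2*, *mt-nd3*, *mt-nd4l* and *mt-nd6*.

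*mt-nd1* encodes the subunit that lines much of the ubiquinone-binding chamber, where the membrane arm meets the peripheral arm. Its level was 519, 756, 745 and 1283 CPM in GFP+ replicates 1 to 4, and 2027, 3925, 791 and 1889 CPM in GFP− replicates 1 to 4. The groups overlapped through GFP− replicate 3 alone, which lay below GFP+ replicate 4. Within pools, the GFP− library was higher by 3.90, 5.19, 1.06 and 1.47 times. In the fit across all transcripts (edgeR's quasi-likelihood test), the log2 fold change of GFP+ over GFP− was -1.30 (standard error 0.409, adjusted p = 0.0868), a fitted level in GFP− cells 2.47 times that in GFP+ cells. It was the lowest adjusted p among the 7.

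*mt-nd2*, *mt-nd4* and *mt-nd5* encode the antiporter-like subunits, the proton-pumping modules of the membrane arm. The level of *mt-nd2* was 990, 1347, 1255 and 1687 CPM in the GFP+ and 2224, 3951, 835 and 1883 CPM in the GFP− libraries, in the order of the pools. GFP− replicate 3 had the lowest value of all 8 libraries, the other 3 GFP− libraries the highest, and the fitted log2 difference was -0.65 ± 0.370 (SE, edgeR adjusted p = 0.461). For *mt-nd4*, the levels were 993, 1221, 1341 and 2102 CPM in GFP+ and 2399, 3946, 1485 and 2333 CPM in GFP− libraries. The groups overlapped only in that GFP+ replicate 4 lay above GFP− replicate 3, with a fitted log2 difference of -0.78 ± 0.309 (SE, edgeR adjusted p = 0.204). The level of *mt-nd5* was 478, 453, 397 and 643 CPM in GFP+ and 886, 2175, 611 and 737 CPM in GFP− libraries. Here too only GFP+ replicate 4 reached above a GFP− library, replicate 3, and *mt-nd5* was higher in the GFP− library of every pool, by 1.86, 4.80, 1.54 and 1.15 times. Its fitted log2 difference was -1.08 ± 0.397 (SE, edgeR adjusted p = 0.163).

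*mt-nd3*, *mt-nd4l* and *mt-nd6* encode small membrane subunits that lie between the ubiquinone chamber and the proton channels. The level of *mt-nd3* was 749, 645, 1086 and 1439 CPM in GFP+ and 1618, 3588, 667 and 1720 CPM in GFP− libraries. GFP− replicate 3 lay among the low GFP+ libraries and the other GFP− libraries above them all, and the fitted log2 difference was -0.86 ± 0.422 (SE, edgeR adjusted p = 0.353). *mt-nd4l* had the lowest CPM of the 7, with 61.6, 107, 124 and 119 CPM in GFP+ and 295, 685, 120 and 160 CPM in GFP− libraries. It had the largest fold change of the 7, with a log2 fold change of -1.50, but also the largest standard error, 0.552 (edgeR adjusted p = 0.162). By pool, the GFP− level was 4.78, 6.39, 0.964 and 1.34 times the GFP+ level, so pool 3 showed next to no difference. Its value in GFP− replicate 3 rested on 877 counts, with a 95% Wilson interval from 112 to 128 CPM, the widest relative interval among the members.

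*mt-nd6* had the fold change nearest to 0 among the 7. Its level was 659, 789, 837 and 990 CPM in GFP+ and 801, 1489, 425 and 1018 CPM in GFP− libraries. Both sets of values were interleaved, with means of 819 ± 137 in GFP+ and 933 ± 444 CPM in GFP− cells (SD, n = 4 each). The fitted log2 difference was -0.09 ± 0.351 (SE, edgeR adjusted p = 0.965), the only one of the 7 smaller in size than the median of -0.19 over all transcripts tested. Its sign was not stable, since the log2 fold change was 0.26 without pool 2 and 0.19 without GFP− replicate 2 alone.

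**Figure D2:**
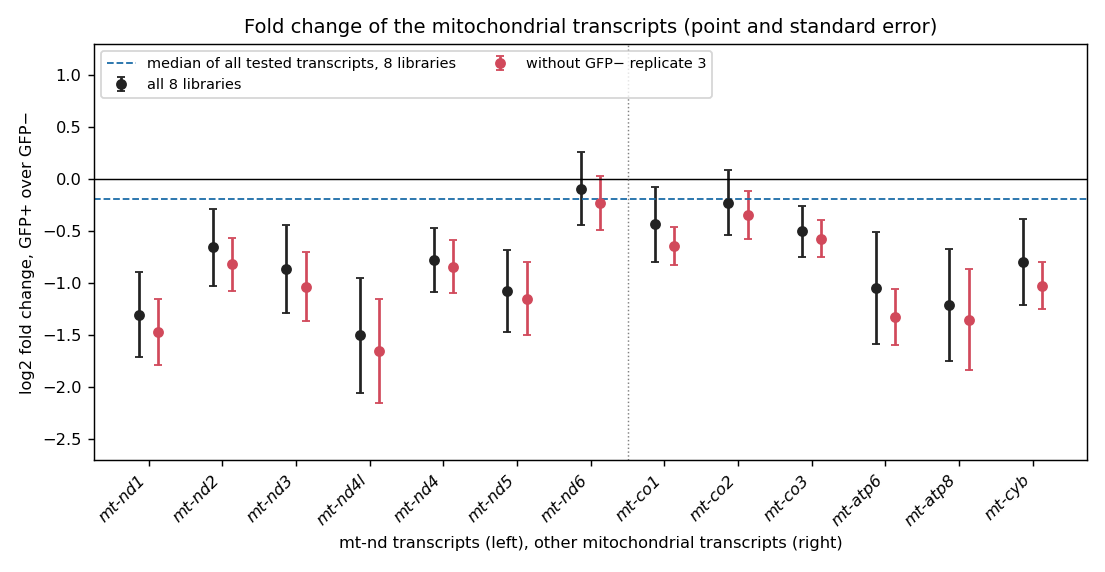
Log2 fold change of GFP+ over GFP− cells (vertical axis) with its standard error for the 7 *mt-nd* and the 6 other mitochondrial transcripts, with all 8 libraries (black) and without GFP− replicate 3 (red). The dashed line is the median over all tested transcripts, -0.19. All points lie below 0, with *mt-nd6* and *mt-co2* nearest to it, and both are above 0 without pool 2 (not drawn).

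At the thresholds of the study (FDR below 0.01, log2 fold change beyond 2 in size), 0 of the 7 *mt-nd* transcripts were called by edgeR or by DESeq2. The study applied these thresholds to moderated log2 fold changes of genes from DESeq2. Here they were applied to single transcripts without that moderation, so the counts called are not set against those of the study. Of the 13379 transcripts tested with edgeR, 1.50% were called, and 0.568% were called as higher in GFP− cells. DESeq2 called 1930 of the 18076 transcripts it tested. With the pool as a block, 0 of the 7 and 1.75% of all transcripts were called. At an unadjusted p below 0.05, edgeR gave 4 of the 7 (*mt-nd1*, *mt-nd4l*, *mt-nd4* and *mt-nd5*), against 16.6% of all transcripts. Of the 939 tested transcripts with at least 100 CPM in the mean, the set that holds the 7, 399 had such a p in edgeR. DESeq2 gave 0 of the 7. With the pool as a block edgeR gave 3, without *mt-nd4l* (unadjusted p = 0.0566). The share of all transcripts at that threshold was computed for edgeR without a block only. The counts from DESeq2 and from the block are therefore not read against it. At an FDR below 0.1 with any fold change, 1 of the 7, *mt-nd1*, was called, against 9.64% of all transcripts. That call was lost with the pool as a block (adjusted p = 0.127, where 7.74% of transcripts were called) and with library totals in place of TMM scaling (adjusted p = 0.102). It was also lost with DESeq2 (adjusted p = 0.330) and without pool 1, 2 or 4. Leaving out GFP+ replicate 1, 2 or 3, or GFP− replicate 1, 2 or 4, lost it too. Under the other alternatives the call was kept. The log2 fold change was below 0 for all 7 with all libraries in, though not for *mt-nd6* without pool 2, with a median of -0.86, against 54.5% below 0 and a median of -0.19 among all 13379 transcripts tested. Among the 939 tested transcripts with at least 100 CPM in the mean, to which the 7 belong, 46.8% lay below 0, with a median of 0.13. Library totals without the transcript with the most reads moved the median of all transcripts to -0.37 and that of the 7 to -1.04, so that the distance between both medians was -0.67 with either scaling. With the pool as a block the medians were -0.75 for the 7 and -0.53 for all transcripts, a smaller distance of -0.22. Over all settings fitted, the distance ran from -0.92 (without pool 3) to -0.21 (DESeq2).

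The separation of the populations depended on GFP− replicate 3. With all 8 libraries, the CPM ranges of GFP+ and GFP− cells overlapped for all 7 *mt-nd* transcripts. They did not overlap, in either direction, for 18.5% of all transcripts tested, and for 365 of the 939 with at least 100 CPM in the mean. On the TMM scale the GFP− libraries lay above the GFP+ libraries for 2 of the 7, *mt-nd4l* and *mt-nd5*, against 9.69% of all transcripts. Without GFP− replicate 3, the other 3 GFP− libraries lay above all 4 GFP+ libraries for 6 of the 7, all but *mt-nd6*, on both scales. That library had the lowest CPM of the 4 GFP− libraries for all 7, so leaving it out could not reduce this separation. For CPM, 15.3% of all tested transcripts, and 21.5% of those with at least 100 CPM, did so without that library. On the TMM scale 14.1% of all tested transcripts did. Leaving out any other single library separated at most 3 of the 7 in CPM (*mt-nd1*, *mt-nd4* and *mt-nd5*, without GFP+ replicate 4). Without GFP+ replicate 4, 13.3% of all tested transcripts and 15.3% of those with at least 100 CPM were so separated, with GFP− above. In the fit without GFP− replicate 3, the 6 members other than *mt-nd6* had edgeR adjusted p-values between 0.0316 (*mt-nd1*) and 0.0963 (*mt-nd3*). Their log2 fold changes ran from -1.65 (*mt-nd4l*) to -0.82 (*mt-nd2*). In that fit, 11.2% of transcripts had an FDR below 0.1. Shares at this FDR were computed over all tested transcripts only, not for those with at least 100 CPM. In the same fit *mt-nd6* had a fitted log2 difference of -0.23 ± 0.261 (SE, edgeR adjusted p = 0.873). Without GFP− replicate 2, the library with the highest levels, the lowest adjusted p among the 7 was 0.271, that of *mt-nd1*, and the log2 fold changes were -0.88 (*mt-nd1*), -0.83 (*mt-nd4l*), -0.57 (*mt-nd5*), -0.52 (*mt-nd4*), -0.40 (*mt-nd3*) and -0.26 (*mt-nd2*), with 0.19 for *mt-nd6*. In that fit 5.24% of transcripts had an FDR below 0.1. The low depth of GFP− replicate 3 and the large share of its most-read transcript stood beside these values, and their part in the result was not tested.

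Ratios between members within a library do not depend on how libraries are scaled to one another, so the make-up of the *mt-nd* RNA was compared next. *mt-nd1* held 11.7%, 14.2%, 12.9% and 15.5% of the summed *mt-nd* counts in GFP+ replicates 1 to 4, and 19.8%, 19.9%, 16.0% and 19.4% in GFP− replicates 1 to 4. *mt-nd6* held 14.8%, 14.8%, 14.5% and 12.0% in the GFP+ libraries, and 7.81%, 7.53%, 8.62% and 10.5% in the GFP− libraries. For both members the populations did not overlap, in opposite directions, and GFP− replicate 3 lay on the side of its own population for both. The shares of the other 5 overlapped. Of the within-library ratios of all pairs of tested transcripts with at least 100 CPM, 44.5% did not overlap. Those are ratios of single transcripts, a measure unlike a share of a sum, for which no such figure over all transcripts was computed. Nothing particular to the family is read from the 2 of 7. *mt-nd4* and *mt-nd2* were the largest parts in GFP+ cells, with 23.5% ± 1.36 and 22.4% ± 2.09, and in GFP− cells, with 24.4% ± 4.21 and 19.5% ± 1.98 (SD, n = 4 each). Shares of a sum depend on one another, and no test was made on them.

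**Figure D3:**
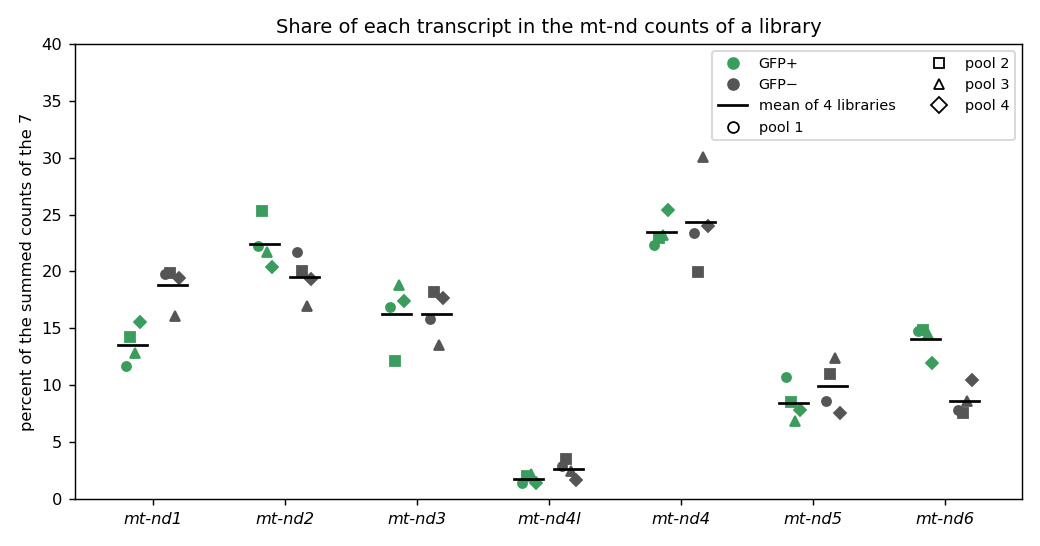
Percent of the summed *mt-nd* counts of a library held by each of the 7 transcripts (vertical axis), with GFP+ libraries in green, GFP− libraries in grey, 1 symbol per pool and a bar at the mean of 4. The populations are separate for *mt-nd1*, lower in GFP+ cells, and for *mt-nd6*, higher in GFP+ cells.

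Ratios of 3 pairs were tested (exact permutation tests, two-sided, whose smallest p with 4 libraries against 4 is 0.0286). The pairs were chosen with earlier results of these data known, and the adjustment covers these 3 only. The permutation tests do not use the pairing of libraries by pool, which the sign-flip tests do. The first pair was *mt-nd1* and *mt-nd2*, near neighbours on the heavy strand. *mt-nd1* had 0.525, 0.561, 0.593 and 0.760 counts per count of *mt-nd2* in GFP+ libraries, and 0.911, 0.993, 0.947 and 1.00 in GFP− libraries. The 2 transcripts were thus near parity in all 4 GFP− libraries, replicate 3 included, and *mt-nd1* was the scarcer in all 4 GFP+ libraries. The log2 ratio was -0.73 ± 0.233 in GFP+ and -0.05 ± 0.0644 in GFP− cells (SD, n = 4 each), and the difference of -0.67 (standard error 0.121) had the same direction in 4 of 4 pools (exact p = 0.0286, adjusted over the 3 ratios p = 0.0857). It did not pass 0.05 after adjustment. The ratio did not overlap between populations, which also held for 44.5% of the ratios of all pairs of tested transcripts with at least 100 CPM. Nothing particular to this pair is read from it. Within pools, the exact sign-flip test gave p = 0.125, the smallest that 4 pairs allow. Without GFP− replicate 3 the difference was -0.68 (exact permutation p = 0.0571).

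The second pair was *mt-nd6* and *mt-nd5*, which end next to each other on opposite strands. *mt-nd6* had 1.38, 1.74, 2.11 and 1.54 counts per count of *mt-nd5* in GFP+ libraries, and 0.904, 0.684, 0.696 and 1.38 in GFP− libraries. *mt-nd6* had more counts than *mt-nd5* in all GFP+ libraries and in GFP− replicate 4, whose ratio lay just above that of GFP+ replicate 1. The log2 ratio was 0.74 ± 0.263 in GFP+ and -0.19 ± 0.473 in GFP− cells (SD, n = 4 each), a difference of 0.93 (standard error 0.270), higher in GFP+ cells in 4 of 4 pools (exact permutation p = 0.0571, adjusted over the 3 ratios p = 0.0857). Without GFP− replicate 3 the difference was 0.82 (exact permutation p = 0.114). Within pools, the exact sign-flip test gave p = 0.125. The strand setting of the quantification is not given in the sources used here. Reads from *mt-nd6* and from RNA of the opposite strand therefore cannot be told apart. This bears on all values given for *mt-nd6*, as does whether its RNA has a poly(A) tail, and neither was tested.

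The third pair was *mt-nd4l* and *mt-nd4*, whose reading frames overlap and which in human mitochondria are carried on a shared mRNA. *mt-nd4l* had 0.0620, 0.0879, 0.0927 and 0.0566 counts per count of *mt-nd4* in GFP+ libraries, and 0.123, 0.174, 0.0808 and 0.0684 in GFP− libraries. The populations overlapped, and the log2 difference of -0.51 (standard error 0.352) had the same direction in 3 of 4 pools, with pool 3 opposite (exact permutation p = 0.200, adjusted over the 3 ratios p = 0.200). Without GFP− replicate 3 the difference was -0.63 (exact permutation p = 0.171). Within pools, the exact sign-flip test gave p = 0.25. In every library *mt-nd4* had far more reads than *mt-nd4l*. If the mRNA is shared in zebrafish too, reads near its 3′ end need not reflect the molecules that carry *mt-nd4l*. This bears on its low CPM and its fold change as well, and was not tested.

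**Figure D4:**
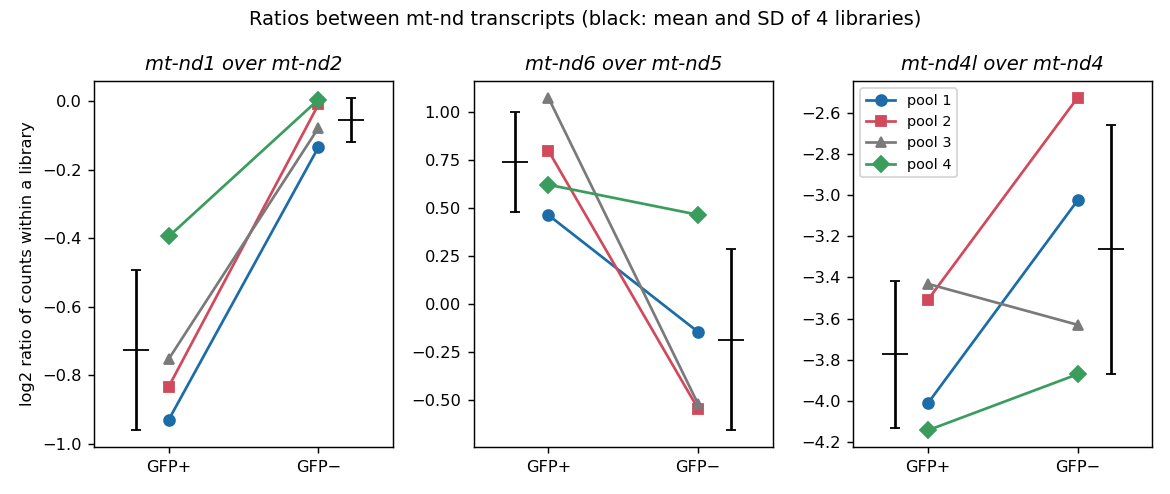
Log2 ratio of counts of 2 *mt-nd* transcripts within each library (vertical axis), with a line joining the GFP+ and GFP− library of a pool and the mean and SD of 4 libraries in black. *mt-nd1* over *mt-nd2* is higher in GFP− cells in all 4 pools with no overlap, *mt-nd6* over *mt-nd5* is lower in GFP− cells in all 4 pools with GFP− replicate 4 overlapping, and *mt-nd4l* over *mt-nd4* overlaps widely.

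Over all 21 pairs of *mt-nd* transcripts, looked at after the values had been seen, the ratio did not overlap between populations for 6. Of these 6 pairs, 5 held *mt-nd6*, which had relatively more counts in GFP+ cells against *mt-nd1*, *mt-nd2*, *mt-nd3*, *mt-nd4l* and *mt-nd4*. The remaining pair was *mt-nd1* with *mt-nd2*. The limits given above for reads of *mt-nd6* apply to its pairs here too. The share among all 440391 pairs of abundant transcripts was the 44.5% given above. The 6 of 21 lay below that share and the 5 of the 6 pairs with *mt-nd6* above it. The pairs share libraries and members, and these counts were not tested.

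Within a population, the order of levels depended on the scale. By CPM, the order in GFP+ cells was *mt-nd4* (1414 ± 481 CPM), *mt-nd2* (1320 ± 288), *mt-nd3* (980 ± 359), *mt-nd1* (826 ± 324), *mt-nd6* (819 ± 137), *mt-nd5* (493 ± 106) and *mt-nd4l* (103 ± 28.5, SD, n = 4 each). Neighbours in that order overlapped as far as *mt-nd6*, while *mt-nd6* lay above *mt-nd5* and *mt-nd5* above *mt-nd4l* without overlap. In GFP− cells the order by CPM was *mt-nd4* (2541 ± 1025 CPM), *mt-nd2* (2224 ± 1295), *mt-nd1* (2158 ± 1301), *mt-nd3* (1898 ± 1222), *mt-nd5* (1102 ± 724), *mt-nd6* (933 ± 444) and *mt-nd4l* (315 ± 258), and all neighbours overlapped. Per kilobase of transcript, a scale usual for comparing genes but one that divides 3′ reads by a length they do not cover, *mt-nd3* led in both populations, with a mean of 2791 CPM per kilobase in GFP+ and 5408 in GFP− cells, and *mt-nd5* came last, with 271 and 605. *mt-nd6* was second in GFP+ cells by that scale (1578 CPM per kilobase) and the fifth in GFP− cells (1798). Neighbours in the order per kilobase overlapped in both populations, except that *mt-nd1* (847 CPM per kilobase) lay above *mt-nd4l* (347) in GFP+ cells.

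The other mitochondrial transcripts encode subunits of cytochrome c oxidase (*mt-co1*, *mt-co2*, *mt-co3*), ATP synthase (*mt-atp6*, *mt-atp8*) and the cytochrome bc1 complex (*mt-cyb*), and all 6 had log2 fold changes below 0, from -1.21 (*mt-atp8*) to -0.23 (*mt-co2*), with a median of -0.65 and no edgeR adjusted p below 0.279. Without pool 2, *mt-co1* and *mt-co2* were above 0 (0.02 and 0.29). Without GFP− replicate 3, 4 of the 6 had an FDR below 0.1, namely *mt-atp6* (edgeR adjusted p = 0.0255), *mt-cyb* (0.0356), *mt-co1* (0.0846) and *mt-co3* (0.0894). In that fit 11.2% of all transcripts did, and the share among those with at least 100 CPM was not computed. Also without that library, 5 of the 6, all but *mt-co2*, had a higher CPM in every remaining GFP− library than in every GFP+ library. The same held for 15.3% of all tested transcripts and 21.5% of those with at least 100 CPM. The *mt-nd* transcripts held 15.1% to 19.0% of the counts of all 13 mitochondrial transcripts in GFP+ and 18.4% to 22.5% in GFP− libraries. These ranges overlapped, and the share was higher in the GFP− library of each of the 4 pools, by 1.06 to 1.25 times. By rank, the mean CPM of the most abundant member, *mt-nd4*, was 84th of all transcripts in GFP+ and 36th in GFP− cells, while *mt-co3*, the most abundant mitochondrial mRNA, was 4th and 2nd.

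Across the 8 libraries, the profile of each *mt-nd* transcript was compared with the mean profile of the other 6, as log2 CPM on the TMM scale. Pearson's r was between 0.885 (*mt-nd5*) and 0.966 (*mt-nd1*) for the heavy-strand members and 0.670 for *mt-nd6*. The lowest r between 2 members was 0.497, between *mt-nd5* and *mt-nd6*, and the highest 0.982, between *mt-nd1* and *mt-nd4*. Among the 932 other transcripts with at least 100 CPM in the mean, the 3 whose profiles were most like the mean of the 7 were all mitochondrial, namely *mt-atp8* (r = 0.976), *mt-co3* (r = 0.974) and *mt-cyb* (r = 0.893), against a median r of -0.09. *mt-co2*, *mt-atp6* and *mt-co1* came in places 9, 11 and 16. Without GFP− replicate 3, r was 0.789 for *mt-nd6* and 0.933 (*mt-nd5*) to 0.988 (*mt-nd2*) for the heavy-strand members. For the others it was then 0.982 (*mt-atp8*), 0.973 (*mt-co3*), 0.973 (*mt-cyb*), 0.868 (*mt-co2*), 0.946 (*mt-atp6*) and 0.921 (*mt-co1*). These values describe 8 libraries that fall into 2 populations and share their depth and scaling between transcripts.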

How the data were processed

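The authors sequenced Lexogen QuantSeq 3′ libraries and quantified reads with Salmon 0.9.1 without length correction against Ensembl release 90 transcripts (GRCz10). Strand setting and removal of PCR copies are not given in the sources used here. The deposited estimated counts were rounded. The deposited TPM values equal CPM, since every effective length is 100, to within 1.69e-06. Lengths were also used. Groups and replicate numbers come from the sample titles, and the replicate numbers were used as pool numbers.

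All transcripts were fitted with edgeR 4.0.16 in R 4.3.3 (filterByExpr, TMM, quasi-likelihood F test without a block, Benjamini-Hochberg), since no design formula is stated. The standard error is the size of the log2 fold change over the square root of F. The fit was tested on simulated data. Ratios used counts plus 0.5 (scipy 1.17.1). Log2 CPM profiles used a prior count of 2. DESeq2 1.42.0 was an alternative. The members, lists and tests were chosen with earlier results of these data known. All members are named, with the other mitochondrial transcripts and the 3 most similar transcripts. Floors, at 3 counts, were 0.108 to 0.410 CPM.

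The GFP+ and GFP− libraries of a pool come from the same retinas. Libraries were paired by replicate number, an assumption, since the titles name no pools. Across transcripts, the deviations of the libraries of a pool from their population means had correlations of 0.03, 0.03, -0.00350 and 0.07 in pools 1 to 4. The mean correlation of each GFP+ library with the GFP− libraries of other pools was -0.0103, -0.0122, 0.00142 and -0.0202. In pools 1, 2 and 4, though not in pool 3, the GFP− library of the same number had the highest correlation. The pairing remains an assumption.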

Additional observations from a re-analysis of the deposited data

How the results depend on the processing

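Each *mt-nd* fold change was recomputed under 20 alternatives. Of these 140 values, 135 kept their sign, and the 5 that did not were all of *mt-nd6* with a pool or library left out, where its log2 fold change ranged from -0.28 to 0.26. No alternative called a member at an FDR below 0.01 with a log2 fold change beyond 2. At an FDR below 0.1 with any fold change, the count was 1 of 7 (*mt-nd1*) and 1290 over all transcripts. Of the 7, *mt-nd1* alone fell below an FDR of 0.01, without the filter on low counts (edgeR adjusted p = 0.00265, the lowest over its alternatives, which reached 0.566). Of the other mitochondrial transcripts, *mt-atp6* alone did so in that fit, with a lower value (edgeR adjusted p = 1.18e-05). There 6.48% of all transcripts had an FDR below 0.1, and the share below 0.01 was not computed. With bias-adjusted deviance 3 of the 7 and 21.0% of all transcripts had an FDR below 0.1, with library totals that left out the most-read transcript 4 and 9.50%, and with DESeq2 0 and 23.6%. The 201 transcripts called became 850 without the filter, 757 with bias-adjusted deviance and 1930 with DESeq2, and 15 to 196 with a pool or library left out. The log2 ratio of *mt-nd1* over *mt-nd2* was -0.76 to -0.62 with a pool or library left out, where the exact p cannot go below 0.0571. With the replicate block it was -0.67 (exact sign-flip p = 0.125). For the ratios only, leaving out GFP− replicate 3 alone and unrounded counts were chosen after seeing the data. Beside the 2 changes given for *mt-nd1* (FDR below 0.1) and *mt-nd4l* (unadjusted p), the replicate block changed no call of a member. The difference of the summed share, GFP+ minus GFP−, lay between -0.74 (without the most-read transcript) and -0.21 (without pool 2) percentage points. The lowest count behind any value of a member was 877.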

Other observations

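Of 22 sets of 4 values (each *mt-nd* transcript, their summed share and the 3 ratios, in each population), none had a library whose gap to its neighbour passed Dixon's 95% critical value. The nearest was *mt-nd5* in GFP− cells, where replicate 2, at 2175 CPM, lay 0.824 of the range above the next library. In pool 3, the log2 difference of GFP+ over GFP− in CPM ran from -0.62 for *mt-nd5* to 0.98 for *mt-nd6*. The latter was the largest value in favour of GFP+ cells for any *mt-nd* transcript in any pool. It was not particular to *mt-nd6*, since *mt-atp6* (1.65), *mt-co1* (1.07) and *mt-cyb* (1.02) had larger values in pool 3. Those of *mt-co2* (0.84), *mt-co3* (0.19) and *mt-atp8* (-0.29) were lower.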
